A study of Homo sapiens with 6 samples.

Results

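In H2170 cells, 30 autosomal genes with almost no reads in Control were read in every library of cells that expressed an ACK1 fusion. In the raw count table these genes had at most 3 counts summed over both Control libraries and at least 40 counts summed over the libraries of each ACK1 arm, out of 61487 gene IDs listed. H2170 is an established line of human lung squamous cell carcinoma. Control cells expressed GFP alone, WT cells expressed ACK1 (WT)-GFP, and IDRmut cells expressed ACK1 (IDRmut)-GFP, with 2 libraries of poly-A selected RNA per group. All groups therefore carry a GFP construct, and both ACK1 arms carry an ACK1 fusion. ACK1, the product of TNK2, is a tyrosine kinase that is not a membrane receptor, and the study asks about its condensates. The labels do not spell out IDRmut, give the promoter that drives the transgenes, say whether a group is 1 clone or a pool of cells, or say whether the libraries of a group came from separate cultures. A difference between the lines of cells and a difference made by the transgene cannot be told apart. The p-values measure the spread between these libraries, which may be technical.

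The 30 genes were selected on these counts in all 3 groups, so their levels against Control are a description and carry no test. The same thresholds were met by 40 genes in all: 33 autosomal, 6 on the X chromosome, 0 on the Y chromosome and 1 without a position. Of the 33, SULF1, RSAD2 and MX2 were left out by name. The comparison of WT with IDRmut was not used to select the genes, beyond the minimum set in both arms, and could be tested. That minimum is in raw counts and so is a lower level in WT, whose libraries hold more counts in total. It also leaves out genes that are high in 1 arm and low in the other, such as ARHGAP42 with 100 WT and 36 IDRmut counts. The rule therefore shapes the spread of the ratios in part. All 30 genes passed the filter on low counts, which they did through the ACK1 arms.

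A gene is silent in a cell when its promoter is not used, which can reflect closed chromatin, DNA methylation or the absence of the factors that bind there, and many genes of other lineages are silent in any given tumour line. Genes with promoters rich in CpG dinucleotides are often active in many tissues, and genes with CpG-poor promoters are more often restricted to particular tissues. Activated tyrosine kinases can phosphorylate STAT proteins, which then bind a palindromic DNA element named GAS, while the interferon-activated complex ISGF3 binds an element named ISRE.

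TNK2 itself was read first as a check of the labels. Its level, in CPM (counts relative to the library size after TMM scaling), was 41.1 and 43.1 in the Control libraries, 3514 and 3613 in those of WT, and 1762 and 1455 in those of IDRmut. Endogenous and transgenic reads could not be separated, and the WT level was 2.22 times the IDRmut level (log2 1.15, adjusted p = 2.8e-10, edgeR quasi-likelihood test). In the comparison of WT with IDRmut, the mutation and this difference in TNK2 level cannot be told apart. Library totals ran from 19128111 to 33540998 counts, the second WT library being the deepest. Squamous markers summed to 2599 to 2632 CPM in Control libraries, 1279 to 1319 with WT and 1740 to 1871 with IDRmut, with 8 of the 9 markers above the low-count filter and PKP1 near 0. The sum rests on KRT14, S100A2 and SOX2: of the 8, 3 were called higher and 4 lower in WT against Control, and 5 higher and 3 lower in IDRmut. Immune markers summed to 1.08 to 1.32 CPM in Control libraries, 2.75 to 2.94 with WT and 1.87 to 2.41 with IDRmut, with CD3E and MS4A1 among those at 0 in every library. Endothelial markers summed to 223 to 230 CPM in Control libraries, 54.8 to 57.4 with WT and 103 to 105 with IDRmut, most of it from CDH5. Of the 6 tested, 1 was called higher and 1 lower in WT against Control, and 1 higher and 3 lower in IDRmut. TEK went the other way from CDH5, at 1.07 and 1.08 CPM in Control, 4.7 and 5.5 with WT and 2.75 and 2.55 with IDRmut. Neuronal markers summed to 44.7 to 47.2, 52.6 to 56.2 and 35.9 to 37.3 CPM, most of it from NEFL. Of the 6 tested, 3 were called higher and 1 lower in WT against Control, and 1 higher and 1 lower in IDRmut. Because the samples are bulk RNA, fewer cells of a type and less RNA per cell cannot be told apart, and the part of these markers in the results was not tested.

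Over the 30 genes, Control held 11 and 12 counts in its libraries. WT held 1734 and 2877 counts, and IDRmut held 1444 and 1594. Summed CPM was 0.558 and 0.645 for the Control libraries, 84.9 and 84.2 for WT, and 70.9 and 72.5 for IDRmut. Every ACK1 library had counts for every gene, from 13 for VAV3 in the first WT library to 281 for FLRT2 in the second. No count was found in either Control library for 17 of the genes, 1 count for 6, 2 counts for 4 and 3 counts for 3. A count of 0 over both Control libraries allows up to 3 counts, or 0.0783 CPM. Against that floor, taken over the group, the 17 genes without a Control count were at least 10.8-fold to at least 99.9-fold higher in WT and at least 13.3-fold to at least 88.6-fold higher in IDRmut. The 13 genes with a Control count were 18.2 to 189 times the Control level in WT and 21.3 to 178 times in IDRmut. The lowest bound of any of their 95% counting intervals was 4.8 in WT and 5.57 in IDRmut. These intervals and floors cover counting error only, since amplified reads that carry no molecular identifier can be copies of the same molecule.

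**Figure D1:**
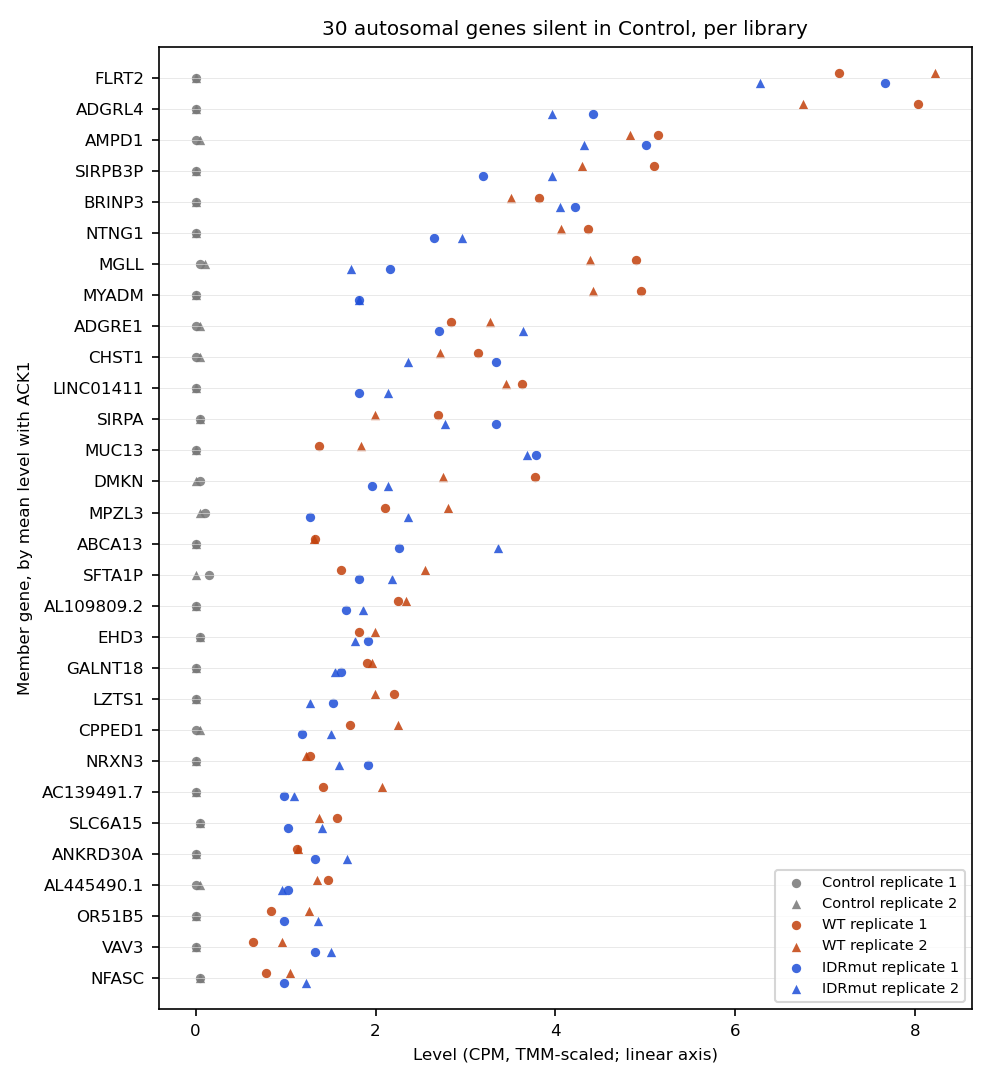
Level of each of the 30 genes in each library, in CPM on a linear axis, ordered by the mean over the 4 ACK1 libraries; each point is 1 library. Control points sit at or near 0 for every gene, while the ACK1 points run from 0.637 CPM for VAV3 to 8.22 CPM for FLRT2.

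The same thresholds were applied to every other arrangement of the groups over all autosomal genes. With no gene left out by name, 33 autosomal genes were silent in Control and on in both ACK1 arms. The number silent in WT alone was 0, and the number silent in IDRmut alone was 0. A single gene, RNU6-1, was on in Control and silent in both ACK1 arms, and it is a small nuclear RNA with many copies whose reads are uncertain. CXCL11 and IDO1, both inducible by interferon, were on in WT alone, and no gene was on in IDRmut alone. Thinning every library to 19128111 counts gave 32, 0, 0, 1, 2 and 1 genes for the same 6 arrangements, the last being P2RX3. With silent meaning 0 counts the numbers were 18, 0, 0, 0, 0 and 0. With at least 20 counts taken as on they were 70, 0, 0, 1, 12 and 0. The ACK1 arms share the Control libraries, so a low Control value enters both.

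**Figure D2:**
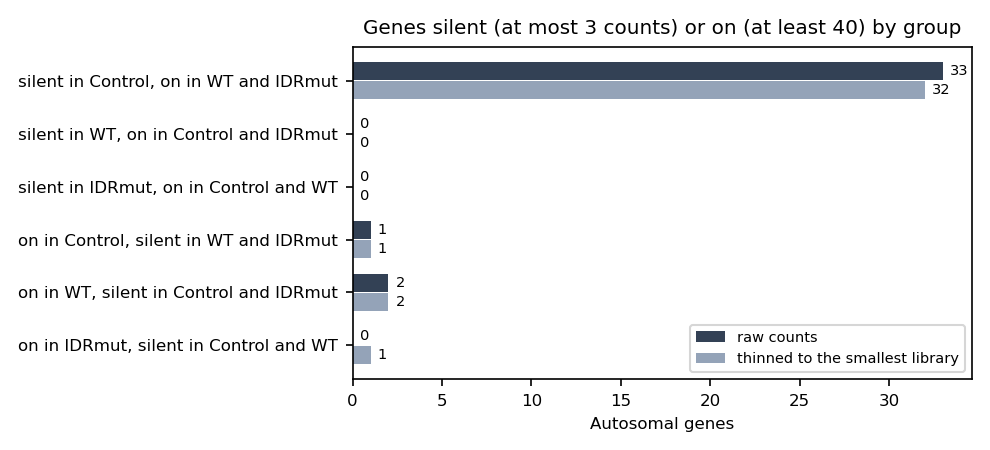
Number of autosomal genes that were silent (at most 3 counts over a group) or on (at least 40 counts over a group) in each arrangement of the 3 groups, for raw counts and for libraries thinned to 19128111 counts. The arrangement silent in Control and on in both ACK1 arms holds 33 genes with raw counts, against 0 to 2 for the others.

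Promoter sequences show how mixed the set is. A RefSeq window (GRCh38.p14, 250 bases before to 50 bases after the first listed start) was matched for 16 of the 30 genes. For 13 of these the start lies within 1 kb of the GENCODE start of the gene, but it lies inside the gene by 3.19 kb for DMKN, 19.1 kb for MUC13 and 277 kb for VAV3, so these windows belong to an inner start. The 250 bases before the start are printed for the 4 genes of highest level with a window and for the genes at both ends of the WT to IDRmut ratio, each 5′ to 3′ on the gene's strand, with every CpG in capitals. The windows lie at chr14:85529894-85530143 for FLRT2, chr1:79006731-79006980 for ADGRL4, chr1:114695547-114695796 for AMPD1, chr1:190477865-190478114 for BRINP3, chr19:53866121-53866370 for MYADM and chr3:124934752-124935001 for MUC13.
FLRT2: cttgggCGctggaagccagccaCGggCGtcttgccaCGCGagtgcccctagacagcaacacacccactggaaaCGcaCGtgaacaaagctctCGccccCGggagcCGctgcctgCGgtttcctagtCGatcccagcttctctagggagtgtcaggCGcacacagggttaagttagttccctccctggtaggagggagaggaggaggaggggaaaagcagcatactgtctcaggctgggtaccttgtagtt
ADGRL4: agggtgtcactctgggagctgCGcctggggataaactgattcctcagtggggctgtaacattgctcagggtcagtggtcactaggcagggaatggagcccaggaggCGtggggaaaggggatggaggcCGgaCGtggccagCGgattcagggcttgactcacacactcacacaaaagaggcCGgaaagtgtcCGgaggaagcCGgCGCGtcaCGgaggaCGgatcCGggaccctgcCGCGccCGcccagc
AMPD1: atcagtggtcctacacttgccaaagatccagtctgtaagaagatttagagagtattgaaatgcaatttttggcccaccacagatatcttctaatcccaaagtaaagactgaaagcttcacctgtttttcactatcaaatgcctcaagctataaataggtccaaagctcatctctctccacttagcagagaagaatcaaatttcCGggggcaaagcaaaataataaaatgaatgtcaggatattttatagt
BRINP3: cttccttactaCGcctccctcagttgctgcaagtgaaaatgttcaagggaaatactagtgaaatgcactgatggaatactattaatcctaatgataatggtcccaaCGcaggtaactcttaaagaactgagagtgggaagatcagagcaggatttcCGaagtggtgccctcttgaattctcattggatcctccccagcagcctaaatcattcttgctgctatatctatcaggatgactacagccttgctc
MYADM: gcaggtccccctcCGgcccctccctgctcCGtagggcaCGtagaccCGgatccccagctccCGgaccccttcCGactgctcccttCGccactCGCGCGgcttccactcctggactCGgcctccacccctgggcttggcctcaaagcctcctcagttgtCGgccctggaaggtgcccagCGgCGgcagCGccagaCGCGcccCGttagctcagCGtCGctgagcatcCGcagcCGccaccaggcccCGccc
MUC13: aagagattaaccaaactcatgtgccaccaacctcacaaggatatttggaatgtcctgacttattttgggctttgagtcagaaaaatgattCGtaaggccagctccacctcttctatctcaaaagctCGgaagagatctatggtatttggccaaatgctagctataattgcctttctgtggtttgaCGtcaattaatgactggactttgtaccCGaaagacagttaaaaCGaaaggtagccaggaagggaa
The MYADM stretch holds 23 CpG, ADGRL4 16 and FLRT2 13, while MUC13 holds 5, BRINP3 3 and AMPD1 1. Genes with CpG-rich and CpG-poor starts are thus both present among the highest levels.

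Over the 16 windows of 300 bases, 8 had a CpG observed to expected ratio of at least 0.6 with at least 50% G and C. The share was 46.9% of the windows of all 27305 genes in the table, 78.5% of those of tested genes and 67.03% of those of tested genes of like level, meaning a mean CPM over the ACK1 libraries within the range of the 30 genes. The median number of CpG was 12.5 in the 16 windows, 14 over all windows, 26 over tested genes and 23 over genes of like level. Motifs were searched on both strands. The GAS element TTCNNNGAA was found in 2 of the 16 windows (12.5%), those of ADGRE1 and DMKN, and in 7.88% of all windows, 6.41% of those of tested genes and 6.57% of those of like level. The ADGRE1 match, in a window at the start of the gene, is not printed. The DMKN match begins 165 bases before an inner start, 3.19 kb inside the gene. The stretch around the DMKN match, chr19:35510617-35510645 on the minus strand, is printed with the match in capitals because the study title names STAT5.
DMKN: tctagggcagTTCTGGGAAtggtgaccaa
The ISRE was found in 0 of the 16 windows and in 3.65%, 2.78% and 2.78% of the same backgrounds. TATAAA was found in 2 (12.5%; AMPD1 and VAV3), against 11.95%, 5.74% and 6.57%. The AP-1 element TGANTCA was found in 4 (ADGRL4, LINC01411, MUC13 and VAV3), against 7.76%, 4.94% and 6.24%. No overlap between motifs was removed. A match is a run of letters in a window and shows no binding.

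By annotation, 25 of the genes are protein coding, 2 are lincRNAs, 2 are unprocessed pseudogenes and 1 is an antisense RNA. From general knowledge, and after their values were seen, the genes were grouped into 10 surface proteins, 7 enzymes and transporters, 7 proteins of signalling, trafficking, secretion or other roles, and 6 noncoding, pseudogene or uncharacterised genes. Between WT and IDRmut, 14.2% of all genes tested were called with WT higher and 12.3% with WT lower. The counts of called genes within a group rest on 6 to 10 genes and are a description of its members, with nothing read from them about the group.

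Among the surface proteins, FLRT2, a transmembrane adhesion protein with roles in axon guidance, had the highest CPM. FLRT2 (ENSG00000185070, chr14:85530144-85654426) had 0 and 0 counts in the Control libraries, 7.15 and 8.22 CPM in WT, and 7.66 and 6.28 CPM in IDRmut. This was at least 99.9-fold higher in WT and at least 88.6-fold higher in IDRmut. All 4 ACK1 libraries were of like height and the arms overlapped (log2 ratio 0.16 ± 0.13 SE, adjusted p = 0.39 in edgeR). FLRT2 has 34.9 kb of annotated exon, so its level per kb was 0.210 CPM.

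ADGRL4, an orphan adhesion G-protein-coupled receptor known from endothelium, came next. ADGRL4 (ENSG00000162618, chr1:78889764-79006718) had 0 and 0 counts in the Control libraries, 8.03 and 6.76 CPM in WT, and 4.42 and 3.96 CPM in IDRmut. It was at least 92.4-fold higher in WT and at least 53.4-fold higher in IDRmut. Both WT libraries stood above both IDRmut libraries, and the gene was called higher in WT (log2 ratio 0.80 ± 0.14 SE, adjusted p = 0.0005 in edgeR). ADGRE1, an adhesion receptor known as the human counterpart of mouse F4/80, showed no such separation. ADGRE1 (ENSG00000174837, chr19:6887566-6940459) had 0 and 1 counts in the Control libraries, 2.84 and 3.28 CPM in WT, and 2.7 and 3.64 CPM in IDRmut. The ratio to Control was 119 in WT (95% counting interval 21.1 to 4738) and 122 in IDRmut (21.5 to 4858). Its arms overlapped (log2 ratio -0.04 ± 0.19 SE, adjusted p = 0.91 in edgeR).

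NTNG1 encodes netrin-G1, a lipid-anchored axon guidance protein. NTNG1 (ENSG00000162631, chr1:107140007-107483458) had 0 and 0 counts in the Control libraries, 4.36 and 4.07 CPM in WT, and 2.65 and 2.96 CPM in IDRmut. It was at least 53.3-fold higher in WT and at least 35.9-fold higher in IDRmut. Both WT libraries were above both IDRmut libraries, with log2 ratio 0.58 ± 0.17 SE, adjusted p = 0.017 in edgeR. The call was lost without either WT library or without the first IDRmut library, with adjusted p up to 0.072 in edgeR.

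SIRPA is an inhibitory receptor of myeloid cells that binds CD47. SIRPA (ENSG00000198053, chr20:1894167-1940592) had 1 and 1 counts in the Control libraries, 2.69 and 1.99 CPM in WT, and 3.34 and 2.77 CPM in IDRmut. The ratio to Control was 43.1 in WT (95% counting interval 11.7 to 360) and 58.3 in IDRmut (15.8 to 487). Both WT libraries were below both IDRmut libraries, without a call (log2 ratio -0.42 ± 0.20 SE, adjusted p = 0.13 in edgeR). MUC13, a transmembrane mucin of gut epithelium, went the other way from ADGRL4. MUC13 (ENSG00000173702, chr3:124905442-124953819) had 0 and 0 counts in the Control libraries, 1.37 and 1.84 CPM in WT, and 3.78 and 3.68 CPM in IDRmut. This was at least 21.3-fold higher in WT and at least 47.6-fold higher in IDRmut. Both IDRmut libraries were at about 3.7 CPM and above both WT libraries, and the gene was called lower in WT (log2 ratio -1.17 ± 0.20 SE, adjusted p = 0.00035 in edgeR).

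The remaining surface genes were the neuronal adhesion proteins NRXN3 and NFASC, the adhesion protein MPZL3 and the olfactory receptor OR51B5. Their mean CPM over the ACK1 libraries ran from 1.01 for NFASC to 2.14 for MPZL3, and none was called between the arms. Of the 10 surface genes, 2 were called higher in WT, 1 lower and 7 were not called, with a median log2 ratio of -0.08.

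Among enzymes and transporters, AMPD1, the AMP deaminase of skeletal muscle, had the highest level. AMPD1 (ENSG00000116748, chr1:114673090-114695618) had 0 and 1 counts in the Control libraries, 5.14 and 4.83 CPM in WT, and 5.01 and 4.32 CPM in IDRmut. The ratio to Control was 189 in WT (95% counting interval 33.7 to 7509) and 178 in IDRmut (31.6 to 7072). The arms overlapped (log2 ratio 0.09 ± 0.15 SE, adjusted p = 0.7 in edgeR). MGLL, the lipase that cleaves monoacylglycerols, split the arms. MGLL (ENSG00000074416, chr3:127689062-128052190) had 1 and 2 counts in the Control libraries, 4.898 and 4.39 CPM in WT, and 2.16 and 1.73 CPM in IDRmut. The ratio to Control was 58.5 in WT (95% counting interval 19.8 to 285) and 24.7 in IDRmut (8.17 to 122). Both WT libraries were over 4 CPM and both IDRmut libraries were close to 2 CPM, and the gene was called higher in WT (log2 ratio 1.25 ± 0.18 SE, adjusted p = 6.1e-05 in edgeR).

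CHST1, a sulfotransferase that acts on keratan sulfate, did not split them. CHST1 (ENSG00000175264, chr11:45648877-45665622) had 0 and 1 counts in the Control libraries, 3.13 and 2.72 CPM in WT, and 3.34 and 2.36 CPM in IDRmut. The ratio to Control was 110 in WT (95% counting interval 19.5 to 4378) and 109 in IDRmut (19.1 to 4322). The arms overlapped (log2 ratio 0.03 ± 0.20 SE, adjusted p = 0.94 in edgeR). ABCA13, a very large member of the ABC transporter family, was called lower in WT. ABCA13 (ENSG00000179869, chr7:48171458-48647496) had 0 and 0 counts in the Control libraries, 1.32 and 1.32 CPM in WT, and 2.26 and 3.37 CPM in IDRmut. Relative to Control, the level was at least 16.8-fold higher in WT and at least 36.2-fold higher in IDRmut. The WT libraries were nearly equal and both below the IDRmut libraries (log2 ratio -1.10 ± 0.24 SE, adjusted p = 0.0026 in edgeR). Without the second IDRmut library the adjusted p was 0.053 in edgeR. GALNT18, of the family that starts mucin-type O-glycans, the amino acid transporter SLC6A15 and the phosphatase CPPED1 were not called, at mean levels of 1.35 to 1.76 CPM. Of the 7, 1 was called higher in WT, 1 lower and 5 were not called, with a median log2 ratio of 0.24.

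Among the proteins of other roles, BRINP3, a secreted protein of the nervous system, was the highest. BRINP3 (ENSG00000162670, chr1:190097662-190478404) had 0 and 0 counts in the Control libraries, 3.82 and 3.51 CPM in WT, and 4.22 and 4.05 CPM in IDRmut. This was at least 46.3-fold higher in WT and at least 52.8-fold higher in IDRmut. Both WT libraries were below both IDRmut libraries by a small margin that was not called (log2 ratio -0.18 ± 0.15 SE, adjusted p = 0.42 in edgeR). MYADM, a membrane protein first described in myeloid differentiation, had the highest WT to IDRmut ratio of the 30. MYADM (ENSG00000179820, chr19:53866223-53876437) had 0 and 0 counts in the Control libraries, 4.95 and 4.42 CPM in WT, and 1.82 and 1.82 CPM in IDRmut. Relative to Control, the level was at least 58.9-fold higher in WT and at least 23.2-fold higher in IDRmut. The WT libraries were well above the IDRmut libraries, which were nearly equal (log2 ratio 1.35 ± 0.18 SE, adjusted p = 3.7e-05 in edgeR). Its exons overlap another gene, AC008440.2, over 11.5% of their length, and that gene had 0 counts in every library.

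VAV3, a guanine nucleotide exchange factor, was the lowest of this group in CPM. VAV3 (ENSG00000134215, chr1:107571160-107965144) had 0 and 0 counts in the Control libraries, 0.637 and 0.965 CPM in WT, and 1.33 and 1.501 CPM in IDRmut. This was at least 10.8-fold higher in WT and at least 18.1-fold higher in IDRmut. Both IDRmut libraries were above both WT libraries, without a call (log2 ratio -0.75 ± 0.29 SE, adjusted p = 0.07 in edgeR). DMKN, the secreted keratinocyte protein dermokine, was called higher in WT (log2 ratio 0.63 ± 0.21 SE, adjusted p = 0.038 in edgeR). DMKN (ENSG00000161249, chr19:35497220-35513658) had 1 and 0 counts in the Control libraries, 3.77 and 2.75 CPM in WT, and 1.96 and 2.14 CPM in IDRmut. Without the first WT library or without either IDRmut library that call was lost, with adjusted p up to 0.27. EHD3, an endocytic recycling protein, LZTS1, a leucine-zipper protein studied as a tumour suppressor, and ANKRD30A, a breast differentiation antigen, were not called, at 1.32 to 1.87 CPM. Of the 7, 2 were called higher in WT, 0 lower and 5 were not called, with a median log2 ratio of 0.06.

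Among the noncoding, pseudogene and uncharacterised genes, SIRPB3P, a pseudogene of the SIRP family, was the highest in CPM. SIRPB3P (ENSG00000223750, chr20:1665283-1708200) had 0 and 0 counts in the Control libraries, 5.09 and 4.3 CPM in WT, and 3.19 and 3.96 CPM in IDRmut. Relative to Control, the level was at least 58.7-fold higher in WT and at least 45.8-fold higher in IDRmut. Both WT libraries were above both IDRmut libraries, without a call (log2 ratio 0.37 ± 0.16 SE, adjusted p = 0.12 in edgeR). AL109809.2, a further unprocessed pseudogene on the same strand of chromosome 20, was not called either. AL109809.2 (ENSG00000234282, chr20:1722045-1722537) had 0 and 0 counts in the Control libraries, 2.25 and 2.34 CPM in WT, and 1.67 and 1.86 CPM in IDRmut. It was at least 29.5-fold higher in WT and at least 22.6-fold higher in IDRmut. Its WT libraries were likewise the higher ones (log2 ratio 0.38 ± 0.21 SE, adjusted p = 0.21 in edgeR). Per kb of exon these pseudogenes had the highest levels of the 30, at 4.12 CPM for AL109809.2 and 3.40 for SIRPB3P. The lincRNA SFTA1P followed at 2.48, with 1.57 for ADGRL4, 1.57 for AMPD1 and 0.0476 for NFASC. Pseudogenes and SIRP family members share sequence, and the counting of reads with several matches is not known, so the split among SIRPB3P, AL109809.2, SIRPA and SIRPB1 is uncertain.

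LINC01411, a lincRNA, was called higher in WT (log2 ratio 0.83 ± 0.19 SE, adjusted p = 0.0038 in edgeR). LINC01411 (ENSG00000249306, chr5:174336295-174532457) had 0 and 0 counts in the Control libraries, 3.62 and 3.45 CPM in WT, and 1.82 and 2.14 CPM in IDRmut. Against the Control floor, it was at least 44.9-fold higher in WT and at least 25.3-fold higher in IDRmut. Both WT libraries were well above both IDRmut libraries. AC139491.7, an uncharacterised gene whose exons overlap others, FAM153B among them, over 54.0% of their length, was called higher as well (log2 ratio 0.80 ± 0.27 SE, adjusted p = 0.041 in edgeR). AC139491.7 (ENSG00000285476, chr5:176063748-176126959) had 0 and 0 counts in the Control libraries, 1.42 and 2.08 CPM in WT, and 0.982 and 1.09 CPM in IDRmut. That call was lost without the second WT library or without either IDRmut library, with adjusted p up to 0.50. The lincRNA SFTA1P and the antisense RNA AL445490.1 were not called, at 2.04 and 1.2 CPM. AL445490.1 overlaps the gene body, but no exon, of the interferon-induced gene IFI6, which had 14.5 and 14.2 CPM in the Control libraries, 85.9 and 93.9 with WT and 65.2 and 58.4 with IDRmut. The strand setting of the counting is not given in the sources used here. Of the 6, 2 were called higher in WT, 0 lower and 4 were not called, with a median log2 ratio of 0.44.

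Between WT and IDRmut, 9 of the 30 genes were called at an adjusted p under 0.05, against 26.5% of the 16591 genes tested and 19.4% of the 3792 tested genes of like level. Called higher in WT were 7 (23.3%), against 14.2% of all tested and 10.8% of those of like level. Called lower in WT were 2 (6.67%), against 12.3% and 8.57%. The share called was thus near the background over all genes. The median log2 ratio of WT to IDRmut over the 30 genes was 0.20, a ratio of 1.15, against 0.00068 over all tested genes and 0.0094 over genes of like level. Over the 4 pairings of a WT with an IDRmut library the median ran from 0.155 to 0.371. The ratio was above 0 on the log2 scale for 20 genes and below 0 for 10, and quartiles were -0.17 and 0.57. Single genes ran from -1.17 for MUC13 to 1.35 for MYADM. The TNK2 ratio, at a log2 of 1.15, was passed by MYADM and MGLL alone, and the difference of either from TNK2 was not tested.

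All WT libraries lay above all IDRmut libraries for 13 of the 30 genes and below them for 7, and the arms overlapped for 10. Over all tested genes the shares were 31.4% above and 30.1% below. For the 21 genes not called the log2 ratio ran from -0.75 to 0.60 with SE from 0.13 to 0.30, so ratios of that size are not shown to be absent. Leaving out 1 library at a time, ADGRL4, MGLL, MYADM, LINC01411 and MUC13 kept their calls in edgeR, that is 5 of the 9. DESeq2 called 4 of the 9, ADGRL4, MGLL, MYADM and MUC13, and gave no adjusted p for 7 of the 30 genes. AC139491.7, which edgeR called, is among these 7 and so was not assessed by DESeq2.

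**Figure D3:**
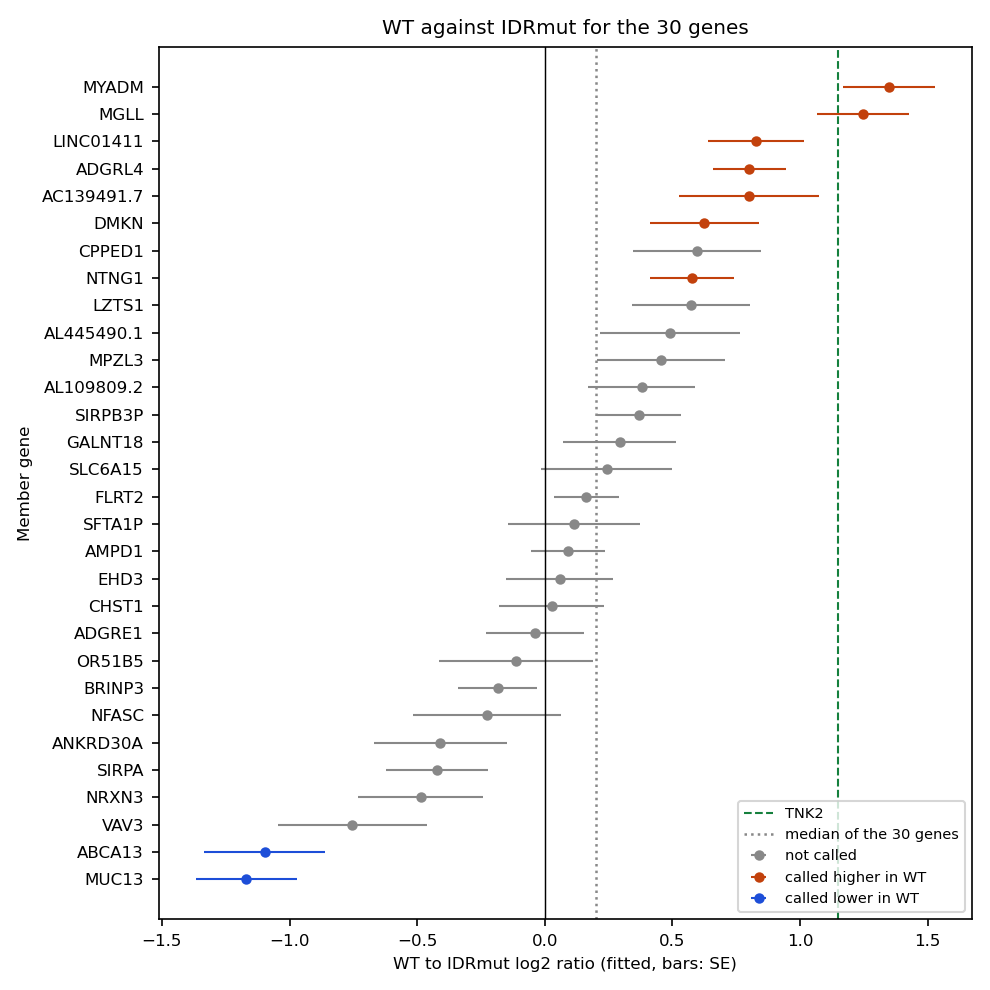
Fitted log2 ratio of WT to IDRmut for each of the 30 genes, sorted, with bars showing the SE of the fit; colours mark the genes called at an adjusted p under 0.05, the dotted line the median of 0.20 and the dashed line TNK2 at 1.15. The ratios run from -1.17 for MUC13 to 1.35 for MYADM, and 20 of the 30 lie above 0.

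The genes lay on 13 autosomes, with 7 on chromosome 1, 4 on chromosome 11, 3 each on chromosomes 19 and 20, 2 each on chromosomes 3, 5, 10 and 14, and 1 each on chromosomes 2, 7, 8, 12 and 16. Within 1 Mb of each other were SIRPB3P and AL109809.2, 13.8 kb apart, AL109809.2 and SIRPA, 171.6 kb apart, and NTNG1 and VAV3, 87.7 kb apart. NTNG1 and VAV3 lie on opposite strands and had ratios of opposite sign. The protein-coding members had a median gene span of 117 kb, against 34.06 kb for protein-coding genes tested and 29.02 kb for those of like level. Spans over 100 kb were found in 13 of the 25 (52.0%), against 20.8% and 21.1%. Overlap with exons of other genes was 0 for 23 of the 30 genes and over 10% for AC139491.7 and MYADM. OR51B5 spans part of the beta-globin locus, and HBE1 and HBG2, whose exons it overlaps, had at most 4 counts in any library.

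Neighbouring genes were not used to select the members. The nearest tested gene on each side whose body lay within 100 kb was taken, leaving out members, which gave 22 distinct neighbours of 18 members. Genes whose body overlaps the member were left out too. IFI6, which overlaps AL445490.1 and was higher in both ACK1 arms by the values above, is thus not among the 22. Of these, 5 (22.7%) had at most 3 Control counts, against 0.735% of tested genes. The share over tested genes counts the members, which the neighbours leave out, and the 5 have low counts, so nothing is read from this contrast. Such a gene passes the filter through the ACK1 arms alone and so had to be higher there, in the neighbours as in the background. The remaining 17 neighbours had at least 19 Control counts. Of the 17, 4 (23.5%) were called higher in WT than in Control and 2 lower, against 17.4% and 17.6% of all genes tested. In IDRmut 4 (23.5%) were called higher and 2 lower, against 15.6% and 15.9%. Their median log2 change was 0.07 in WT and 0.12 in IDRmut. Called and at least 2-fold higher was 1 of the 17 (5.88%) in each arm, against 5.10% of tested genes in WT and 4.33% in IDRmut. These shares were near the background. With the 5 nearly silent genes counted in, 9 of 22 were called higher in each arm, 6 of them at least 2-fold, and nothing is read from those counts. The arms share the Control libraries, so they are not independent.

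The 5 nearly silent neighbours are given by their counts. MPZL2, an adhesion protein 1.05 kb from MPZL3, had no Control count, 17 and 31 counts with WT and 17 and 20 with IDRmut, and so was at least 11.2-fold higher in either arm. OR51B4, an olfactory receptor 1.497 kb from OR51B5, had no Control count, 15 and 27 counts with WT and 6 and 17 with IDRmut, at least 9.82-fold and at least 6.93-fold higher. Each is thus a paralog of the member it sits next to. SIRPB1, 45.2 kb from SIRPB3P, was at least 6.78-fold higher in WT and at least 8.14-fold higher in IDRmut. AC128657.1, a processed pseudogene 25.9 kb from SLC6A15, was at least 6.31-fold and at least 6.63-fold higher. AC139491.1, 1.73 kb from AC139491.7, was 21.7 times its Control level in WT (95% counting interval 3.62 to 886) and 14.5 times in IDRmut (2.25 to 607). Low counts short of the thresholds were also seen in genes not tested, such as SIRPG-AS1 beside SIRPB3P and FAM153B, whose exons overlap those of AC139491.7.

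Among the other 17, XDH, xanthine dehydrogenase, 64.9 kb from EHD3, stood at 1.57 ± 0.43 CPM (SD, n = 2) in Control, 3.66 ± 0.12 with WT and 3.52 ± 0.11 with IDRmut. Beside MUC13, HEG1 rose by a log2 of 0.55 in WT and 0.33 in IDRmut, while ITGB5, the nearer gene at 4.02 kb, was not called in WT (0.02) and fell by 0.15 in IDRmut. Beside LZTS1, ATP6V1B2 rose by 0.34 and 0.23. UPP1, beside ABCA13, fell by 0.23 in WT and by 0.55 in IDRmut. NRAS and DENND2C, on either side of AMPD1, were not called, with log2 changes from -0.04 to 0.07.

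**Figure D4:**
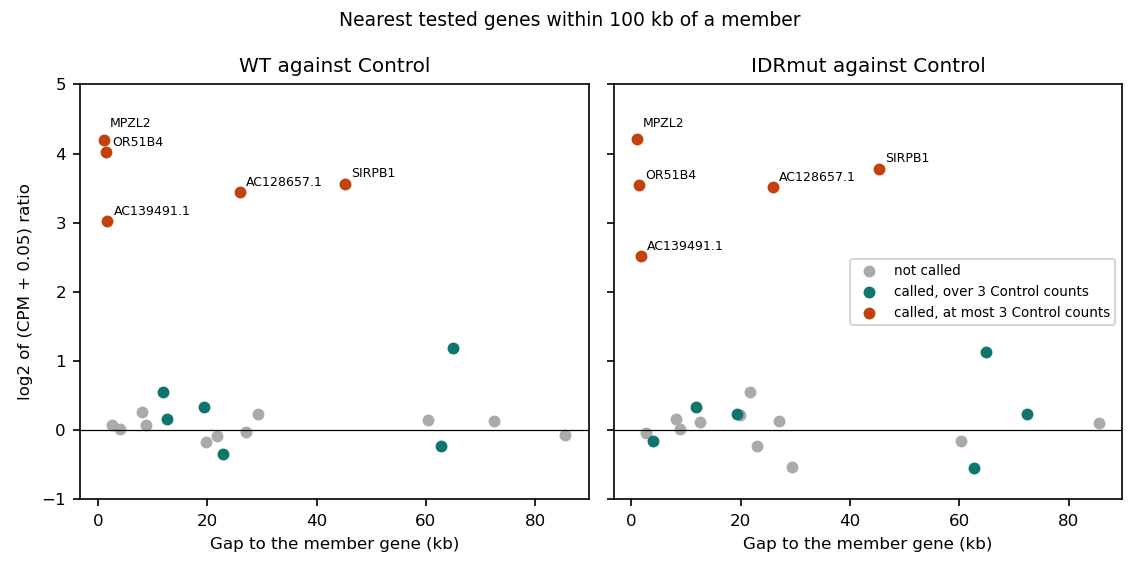
Log2 ratio of mean CPM plus 0.05 to Control for the nearest tested genes within 100 kb of a member and not overlapping it, by their distance from it in kb, for WT on the left and IDRmut on the right; grey points were not called, and colours split the called genes by whether they had at most 3 Control counts. The 5 genes with at most 3 Control counts lie at the top of both panels, and most of the others lie near 0.

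At the edges of the thresholds, MPZL3, MGLL and SFTA1P had the highest Control sum, 3 counts each. AL445490.1 with 42 IDRmut counts, AC139491.7 with 44 IDRmut counts and VAV3 with 46 WT counts had the lowest arm sums. Just outside, OASL, ADAMTS14 and CASP1 had 4 Control counts, and CLMN, MPZL2 and ARHGAP42 had 38, 37 and 36 IDRmut counts. These values describe the thresholds and carry no test.

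None of the 30 genes stood on a list of interferon response genes or on a list of germline genes, and none on the marker lists of other cell types. The selection fixed part of this, since RSAD2 and MX2 met the thresholds, stand on the interferon list and were left out by name. Of 57 tested interferon genes, 52 were called higher and 2 lower in WT against Control, with a median log2 change of 1.82, and in IDRmut 51 were higher and 0 lower, with a median of 1.39. Over all genes tested, 17.4% were called higher and 17.6% lower in WT, and 15.6% higher and 15.9% lower in IDRmut. Of 40 germline genes 1 was tested, and it was called higher in both arms, with log2 changes of 2.49 in WT and 1.39 in IDRmut. The interferon genes on the list with at most 3 Control counts and at least 10 counts in each ACK1 arm were BATF2, CMPK2, CXCL10, GBP4, MX2, RSAD2 and RTP4, that is 7 of the 62 listed. The share of all genes at these thresholds is not given here, so nothing is read from this count.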

How the data were processed

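RNA was sequenced from 6 libraries of H2170 cells, 2 each of Control, WT and IDRmut. The table the authors deposited holds raw gene counts without normalization. HISAT2 2.2.1, SAMtools 1.14, featureCounts 2.0.1 and the build GRCh38 are named per the submitters' processing notes. Annotation, strand setting and handling of multiply matching reads were not given in the sources used here. Gene positions and types came from GENCODE 29, which held 58312 of the 61487 gene IDs and may not be the authors' release. Promoter windows came from RefSeq (GRCh38.p14), and windows of 14 members were not used here.

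Members were found on the deposited counts. Genes were kept by filterByExpr (minimum count 10, minimum total 15), which left 16591. All 6 libraries entered 1 fit of group means with TMM scaling in edgeR 4.0.16 (R 4.3.3), tested with its quasi-likelihood test and adjusted by Benjamini-Hochberg over the 16591 genes, with a threshold of 0.05. The fit had 3 residual and 13.5 prior degrees of freedom. Total counts per library were 20154935 and 19128111 (Control), 20033289 and 33540998 (WT), and 20346572 and 21922477 (IDRmut), so a gene with 40 counts in an arm is known only to a wide counting error. The chi-square per gene between replicates was 1.67, 1.55 and 3.66, above the 1 of pure counting error.

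The procedure was tested on simulated counts over 16591 genes for WT against IDRmut: 50 of 67 genes changed 1.5-fold, 56 of 67 changed 2-fold and 64 of 66 changed 4-fold were called, with 9 of 16391 unchanged genes. The changed genes were drawn from tested genes of any level, with the same spread for every gene and Control set like IDRmut. These rates therefore do not give the power for the members, which have low levels and almost no Control counts. Values in all libraries are given for the 12 members of highest CPM, for members called with a log2 ratio of at least 1 in either direction, and for members within 1 Mb of another. DMKN and AC139491.7 were added after their values were seen. The members and the gene lists were chosen with earlier results of these data known. Alternatives were DESeq2 1.42.0, other scaling and filters, a replicate block, other thresholds and distances, and leaving out each library.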

Additional observations from a re-analysis of the deposited data

How the results depend on the processing

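With Control at 0 counts the rule gave 17 genes, with at most 6 Control counts 46, with at least 80 counts per ACK1 arm 14 and with at least 20 counts 66. Thinning to equal totals gave 29 genes, of which 28 were among the 30, and leaving out genes with exon overlap over 10%, an alternative chosen after seeing the data, gave 28. DESeq2 called 2519 genes between WT and IDRmut against 4396 in edgeR, and 4 members against 9. Within 500 kb, 18 of 42 neighbours were called higher in WT and 14 of 42 in IDRmut, and within 20 kb 6 of 11 and 5 of 11. Over all genes tested, 17.4% were called higher in WT and 15.6% in IDRmut. The neighbour counts in this section include nearly silent genes that had to be higher, AC139491.1, OR51B4 and MPZL2 among them at 20 kb. Nothing is read from these counts. Leaving out 1 library at a time gave 2590 genes (without the second WT library) to 4761 genes called, 6 to 9 members called, a median log2 ratio of 0.166 to 0.258, 8 to 10 neighbours called higher in WT and 7 to 9 in IDRmut, and 27 to 34 genes meeting the rule. Where a group is left with 1 library, that library is assumed to vary like the others. Alternatives were run for the ratios of 18 members, those with values in all libraries, and not for the ratios of the other 12. Among the 18, the log2 ratio changed sign for the uncalled ADGRE1 (range -0.24 to 0.20; 0.04 without the first WT library and 0.20 without the second IDRmut library), CHST1 (range -0.21 to 0.28; -0.06 and -0.21) and AMPD1 (range -0.015 to 0.19; -0.015 without the second IDRmut library). The cause was not tested.

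The replicate numbers share only a number: same-numbered libraries did not deviate together, with correlations of -0.016, -0.032 and -0.044. With a replicate block 3966 genes and 8 members were called, and AC139491.7 had an adjusted p of 0.056 in edgeR. Of 214 values of single members under the alternatives, 194 kept their direction and side of the threshold, 15 fell short of it and 5 changed sign. Of 74 main values 64 stayed within their spread or within 1.5 times.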

Other observations

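The same count thresholds were met on the X chromosome by 6 genes that were not among the autosomal set. PPP4R3C had no Control count, 84 and 142 counts with WT and 66 and 76 with IDRmut. DCAF8L2, which lies near it on the X chromosome, had none, 70 and 125, and 71 and 74 counts in the same order. EDA, the ligand ectodysplasin, had 0 and 1, 79 and 129, and 70 and 53 counts. CSF2RA, a receptor chain for the cytokine GM-CSF, had 0 and 0, 41 and 82, and 38 and 38 counts. MFFP3, a pseudogene, had 0 and 0, 40 and 114, and 31 and 40 counts, and it was called higher in WT than in IDRmut (log2 ratio 0.72 ± 0.25 SE, adjusted p = 0.045 in edgeR). PAGE5, of a family of cancer-testis antigens, had 0 and 0, 35 and 54, and 30 and 37 counts. None of the other 5 was called between the arms.

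A gene ID without a position among the annotations used here had no Control count, 42 and 63 counts with WT and 40 and 22 with IDRmut, and was not analysed by position.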
